A study of Homo sapiens with 39 samples.

Results

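The genes described here are 9 intermediate filament genes of the neuronal and mesenchymal classes, INA, NEFL, NEFM, NEFH, PRPH, VIM, NES, SYNM and GFAP, taken by symbol from a table of 60671 genes. The group was chosen by the TPM of INA, which encodes alpha-internexin and was higher than in WT in both WM115 clones of the R1 deletion, so the INA values in WM115 are given as a description with no test. Gene expression was measured by RNA-seq of poly-A RNA in A375 and WM115, 2 human melanoma cell lines, after deletion of an enhancer region of SOX10, the transcription factor gene of the neural crest and melanocyte lineage. The 39 libraries fall into 11 groups. In A375 there were 4 WT libraries, 3 of clone 1.1 and 4 of clone 1.2 with the genotype R1_del, and 4 of clone 4.1 and 3 of clone 4.2 with the genotype R4_del. In WM115 there were 4 WT libraries, 5 of clone 1.1 and 3 of clone 1.2 with R1_del, 3 of clone 4.1 and 3 of clone 4.2 with R4_del, and 3 of clone 1.3. The titles number clone 1.3 with the R1 clones while its genotype is given as R4_del, so it was kept as a group of its own. Each clone is a single edited line, and no treatment is named in the labels. All clones of a line were compared with the same WT group. Anything peculiar to that WT group enters each of these differences and cannot be told apart from a change in the clones. Nothing in the labels says that libraries of a group came from separate cultures, so p-values measure the spread between these libraries, which may be technical, and an effect of the deletion in 1 clone cannot be told apart from other differences between that clone and WT. In bulk libraries, fewer cells that express a gene and less RNA of it per cell cannot be told apart either.

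Intermediate filaments are rope-like polymers of coiled-coil proteins that give cells mechanical strength. Neurofilament light, medium and heavy chains (NEFL, NEFM, NEFH), alpha-internexin and peripherin (PRPH) build the filaments of neurons, vimentin (VIM) those of mesenchymal cells, and GFAP those of astrocytes, while nestin (NES) and synemin (SYNM) are large proteins that enter filaments together with a partner such as vimentin. Melanocytes come from the neural crest, and melanoma cells commonly carry vimentin and nestin.

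INA lies on chromosome 10 at 103277163-103290351 (GRCh38, plus strand) and VIM lies on the other arm of the same chromosome at 17228259-17237593 (plus strand). The 250 bases before the RefSeq start of each gene (GRCh38.p14) are shown because INA is the gene the group was chosen by and VIM is the most abundant of the 9. Capitals mark GC boxes (GGGCGG on either strand), and the regions are chr10:103276888-103277137 and chr10:17227991-17228240.
INA: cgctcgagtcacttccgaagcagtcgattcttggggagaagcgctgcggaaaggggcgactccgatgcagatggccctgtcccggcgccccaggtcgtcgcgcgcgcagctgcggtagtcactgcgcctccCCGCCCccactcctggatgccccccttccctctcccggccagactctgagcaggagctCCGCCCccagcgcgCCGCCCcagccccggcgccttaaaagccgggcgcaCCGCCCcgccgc
VIM: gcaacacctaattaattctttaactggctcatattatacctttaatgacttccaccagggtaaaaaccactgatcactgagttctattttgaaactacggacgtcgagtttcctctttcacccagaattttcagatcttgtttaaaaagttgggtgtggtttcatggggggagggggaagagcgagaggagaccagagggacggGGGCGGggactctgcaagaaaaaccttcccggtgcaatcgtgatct
The INA stretch held 4 GC boxes, 30 CG pairs and 72.8% G and C, while the VIM stretch held 1 GC box, 8 CG pairs and 46% G and C. Over 34788 upstream stretches of this length, 42.58% held a GC box, and the medians were 58% G and C and 11 CG pairs. No AP-1 site (TGANTCA, either strand) was found in the stretches of INA, PRPH, VIM, NES or SYNM, against 6.591% of all stretches with 1. These matches describe letters only. The other members have no entry in the promoter table.

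Levels are given in TPM, which are scaled for transcript length and for the total of the library. Differences are on the log2(TPM + 1) scale, which understates the change of low genes, and a gene passed the test when limma gave an adjusted p under 0.05 and a difference of at least 1. Genes entered the test with at least 1 TPM in at least 3 libraries of a line. By that filter 6 members entered in A375 (NEFL, NEFM, VIM, NES, SYNM and GFAP) and 7 in WM115 (the same and INA), and NEFH and PRPH entered in neither. Among the libraries, 1 of WM115 clone 1.2 (replicate 3) stood apart, with 9.56 TPM of SOX10 against 272 and 279 in the others of its clone and 449 to 553 in WT. WM115 clone 1.3 was divided: its replicate 2 correlated best with clone 1.2 replicate 2 (r = 0.984, against 0.973 within its group) and its replicate 3 with WT replicate 1 (r = 0.98, against 0.968). The share of TPM on mitochondrial genes ran from 4.71% to 19.4% in WM115 and from 0.968% to 4.92% in A375. In the other WM115 clones SOX10 ran from 342 to 482 TPM in clone 1.1 and 328 to 525 in clone 1.3. It ran from 360 to 465 in clone 4.1 and 321 to 506 in clone 4.2, and each of these clones overlapped WT. SOX10 in A375 ran from 630 to 706 TPM in WT, 381 to 667 in clone 1.1, 406 to 473 in clone 1.2, 711 to 876 in clone 4.1 and 488 to 647 in clone 4.2.

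VIM dominated the group. It made up 95.4% to 98.5% of the summed TPM of the 9 genes in A375 libraries and 85.3% to 97.0% in WM115 libraries, and the 9 genes together held 0.399% to 0.785% and 0.182% to 0.686% of all TPM. The plot of shares shows what was left beside VIM. NES was the largest remainder in A375 WT (2.05% ± 0.655, SD, n = 4) and SYNM in WM115 WT (7.003% ± 2.54, SD, n = 4).

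**Figure D1:**
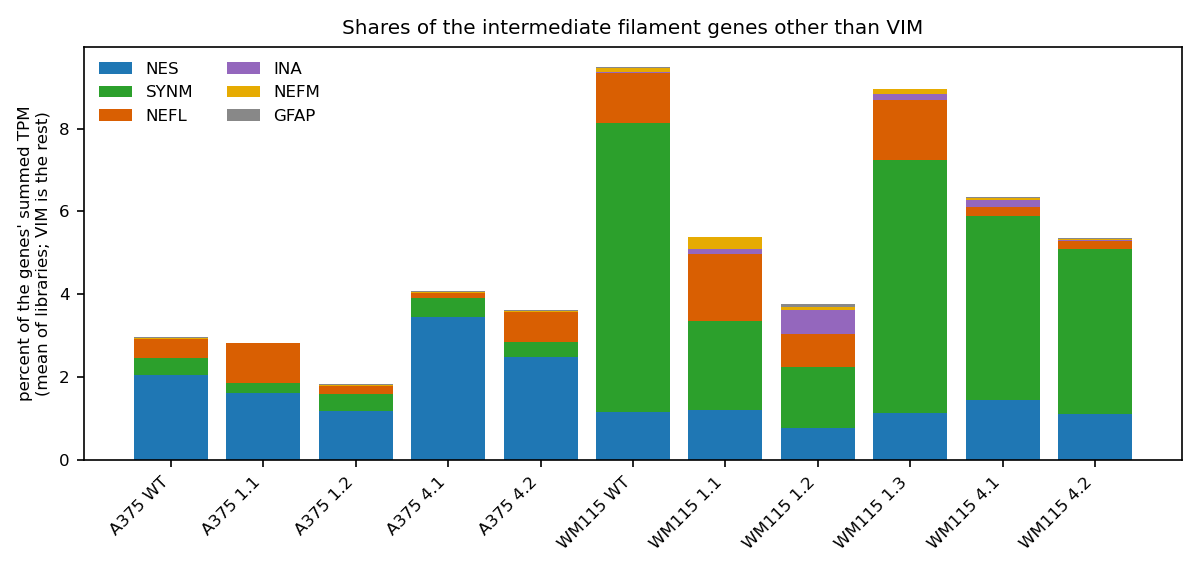
Mean percent of the summed TPM of the 9 genes that falls on each gene other than VIM, by group; VIM takes the rest of each 100%. SYNM is the largest segment in every WM115 group, and NES in every A375 group.

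INA was listed at 0 in all 18 A375 libraries. In WM115 WT it stood at 0.101, 0.462, 0.246 and 0.053 TPM. In the 5 libraries of clone 1.1 it stood at 7.12, 6.15, 7.17, 5.06 and 5.52 TPM, and in clone 1.2 at 14.4, 18.1 and 29.2. No library of either clone overlapped WT, and every library of clone 1.2 lay above every library of clone 1.1.

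The R4 clones of WM115 were above WT as well. INA stood at 7.30, 6.97 and 5.14 TPM in clone 4.1 and at 1.77, 1.72 and 1.11 in clone 4.2. Clone 1.3 held 1.19, 16.8 and 0.479 TPM, so 1 of its libraries reached the range of clone 1.2 and another lay next to the highest WT library. On the log2 scale the differences from WT were 2.57 (SE 0.46) in clone 1.1, 4.102 (SE 0.52) in clone 1.2, 1.68 (SE 0.52) in clone 1.3, 2.62 (SE 0.52) in clone 4.1 and 1.06 (SE 0.52) in clone 4.2, with no test. Without clone 1.3 replicate 2, its difference was 0.58. In the order of group means, clone 1.2 came first and did not overlap clone 4.1, the next. Clones 4.1, 1.1, 1.3 and 4.2 followed, each overlapping its neighbour, the spread of clone 1.3 also reached into clone 1.2, and every library of these clones lay above WT.

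**Figure D2:**
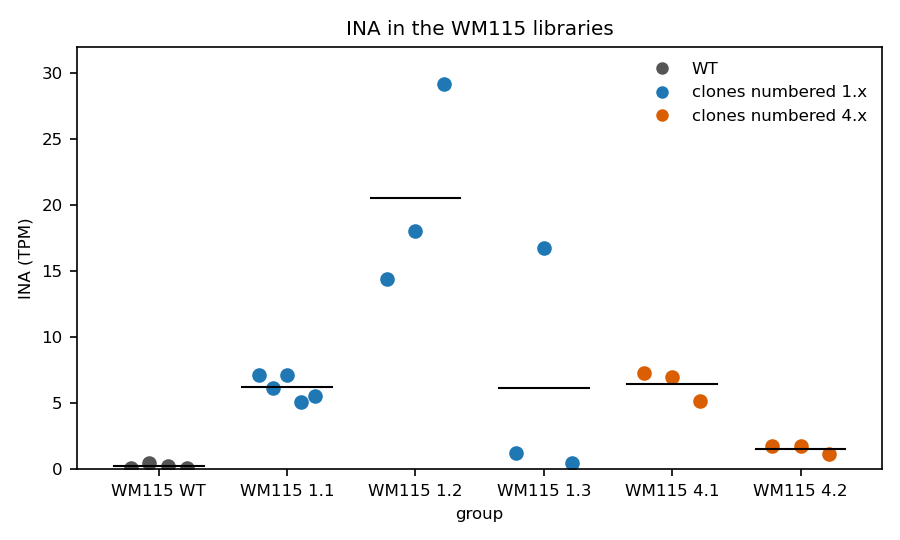
INA in TPM in each of the 21 WM115 libraries (points), with the mean of each group (bar). WT libraries lie at or below 0.462 TPM, clone 1.2 libraries at or above 14.4, and clone 1.3 is spread from 0.479 to 16.8.

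The genes on either side of INA (BORCS7, CNNM2, NT5C2, PCGF6, TAF5 and ATP5MD) did not pass the test in any clone of either line. The median difference of genes within 5 Mb of INA was -0.05 in clone 1.1 and -0.06 in clone 1.2 of WM115. Over the 21 WM115 libraries, the genes whose log2(TPM + 1) followed INA most closely were SPOCK1 (r = 0.938), LRRC75B (r = 0.918), RPL28 (r = 0.892), PLPPR3 (r = 0.870) and DMTN (r = 0.862), out of 16997 genes. These are descriptive, since the libraries share clones, and RPL28 is a ribosomal protein gene. The share of TPM on ribosomal protein genes was 12.0% to 13.6% in WT and 16.2% to 18.6% in the clones other than 1.3, and its part in the INA values was not tested. SPOCK1, a secreted proteoglycan, stood at 5.24 ± 2.40 TPM (SD, n = 4) in WT and at 120.4 ± 111 (SD, n = 3) in clone 1.2. Its means in the other WM115 clones were 8.14 to 22.35 TPM. In A375, where INA was at 0, SPOCK1 had group means of 22.8 to 56.5 TPM. LRRC75B and PLPPR3 were low, with WM115 group means of at most 1.95 and 1.85 TPM. Among the other members r with INA ran from -0.64 for SYNM to 0.472 for VIM, and SOX10 had r = -0.57. Clone 1.2 replicate 3 held the highest INA (29.2 TPM) and the lowest SYNM (6.49) and SOX10 (9.56) of the WM115 libraries. On deviations from group means, r was -0.356 for SYNM, 0.502 for VIM and -0.329 for SOX10. For the 5 genes above it was 0.591 to 0.864. Those 5 were picked by their r over these same libraries, so no comparison with the members or SOX10 is drawn. The part of clone 1.2 replicate 3 in these r was not tested.

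NEFL, the light chain that forms the core of neurofilaments, rose in 1 WM115 clone and fell in others of that line. Its locus is on chromosome 8 at 24950955-24957110 (minus strand), next to NEFM at 24913012-24919098 (plus strand). In WM115 WT NEFL stood at 29.1, 27.4, 24.1 and 39.4 TPM. It stood at 78.8, 93.0, 72.5, 69.1 and 84.0 TPM in clone 1.1, at 9.21, 10.6 and 9.31 in clone 4.1 and at 10.7, 15.8 and 4.96 in clone 4.2. All libraries of clone 1.1 lay above WT and all of clones 4.1 and 4.2 below it, with no overlap.

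NEFL rose in WM115 clone 1.1 by 1.39 (SE 0.24, limma adjusted p = 0.00067) and fell in clones 4.1 and 4.2. The differences there were -1.52 (SE 0.28, limma adjusted p = 0.00094) and -1.53 (SE 0.28, limma adjusted p = 0.0012). In clone 1.2 it stood at 21.8, 45.4 and 28.1 TPM and in clone 1.3 at 30.1, 44.998 and 46.2, both overlapping WT. Libraries above 7.5% mitochondrial share include all 4 of WT but 2 of clone 1.1, 1 of clone 4.1 and 2 of clone 4.2. In these the 3 differences were 1.34 (limma adjusted p = 0.0649), -1.57 and -1.61 (limma adjusted p = 0.0311). The value for clone 4.1 rests on 1 library, so its loss of the call (limma adjusted p = 0.13) says nothing about mitochondrial share. With the replicate number as a block the difference in clone 4.2 was -1.40 and missed the threshold (limma adjusted p = 0.0659). Same-numbered libraries of clone 4.2 and WT were not paired (r from -0.07 to 0.14), so nothing is read from that lost call.

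In A375 the clones of a deletion lay on different sides of WT or overlapped it. NEFL stood at 30.7, 15.9, 24.2 and 26.4 TPM in WT, at 43.0, 79.0 and 42.7 in clone 1.1, at 18.2, 11.5, 13.7 and 10.4 in clone 1.2, at 10.03, 1.25, 5.04 and 9.92 in clone 4.1 and at 39.0, 43.6 and 31.5 in clone 4.2. Clones 1.1 and 4.2 lay above WT and clone 4.1 below it without overlap, while clone 1.2 overlapped WT. Of the 4 clones, only clone 4.1 passed the test against WT, with a difference of -1.96 (SE 0.39, limma adjusted p = 0.0167). It missed the threshold without WT replicate 1 (limma adjusted p = 0.0725), without WT replicate 4 (0.0522), without clone 4.1 replicate 3 (0.0546), and in the libraries of low mitochondrial share (a difference of -1.92, limma adjusted p = 0.367). These fits were unpaired, although same-numbered libraries of clone 4.1 and WT were correlated (r from 0.326 to 0.776, 4 pairs). With the replicate number as a block the call was kept. The difference in clone 1.1 was 1.12 (SE 0.42, limma adjusted p = 0.328).

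Comparisons between clones were added after these values were seen. NEFL was higher in A375 clone 1.1 than in clone 1.2 by 1.92 (SE 0.42, limma adjusted p = 0.0068, 0.0517 without clone 1.1 replicate 2), the only 1 of 6 members to pass where 6.16% of genes did. Clone 4.1 minus clone 4.2 was -2.61 (SE 0.42, limma adjusted p = 0.0021), again the only 1 of 6 members, where 2.23% of genes passed. In WM115 it was higher in clone 1.1 than in clone 1.2 by 1.35 (SE 0.27, limma adjusted p = 0.00084), while clones 4.1 and 4.2 differed by 0.02 (SE 0.30, limma adjusted p = 0.987). By limma 0 of 6 members passed between those WM115 clones (2.63% of genes), and 1 had an unadjusted p under 0.05 (21.3% of genes). A second transcript of NEFL that keeps an intron made up 17.0% to 38.4% of its TPM over all libraries.

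NEFM, the medium chain, rose in WM115 clone 1.1 and passed the test in no other clone of either line. It stood at 2.40, 3.25, 1.86 and 3.85 TPM in WT and at 16.0, 12.1, 12.4, 14.8 and 15.1 in clone 1.1, a rise of 1.99 (SE 0.17, limma adjusted p = 2.5e-07), which was 2.08 in the libraries above 7.5% mitochondrial share. In clone 4.2 it stood at 1.35, 1.04 and 1.21 TPM, all below WT, a difference of -0.78 (SE 0.19, limma adjusted p = 0.0083) that was smaller than the minimum of 1 and -1.13 with a pseudocount of 0.1. The other clones overlapped WT. The gene AF106564.1 lies on the opposite strand of NEFM, and the labels state no stranded library method, so their reads cannot be told apart. It rose with NEFM in clone 1.1 (1.79, limma adjusted p = 7.06e-08) and also in clone 1.2 (1.004, limma adjusted p = 0.000475), where NEFM differed by 0.08 (SE 0.19, limma adjusted p = 0.799). In A375 NEFM was low, at 1.42 to 1.595 TPM in WT and 0.298 to 1.34 in clones 1.1 and 1.2. In clone 4.1 it was 0.889 to 1.23. No library of these 3 clones overlapped WT, clone 4.2 did, and no difference passed the test. The transcript estimates divide these low levels unevenly. The non-coding transcript NEFM-206 took 73.8% of NEFM TPM on average in A375 WT and was listed at 0 in all libraries of clone 1.2, while the coding NEFM-201 was at 0 to 0.627 TPM in WT and 0 to 0.844 in clone 1.2, which overlap. In WM115 the coding transcript stood at 1.05 to 1.61 TPM in WT and 6.13 to 9.82 in clone 1.1. Between WM115 clones, NEFL and NEFM were the 2 of 6 members that passed in clone 1.1 against clone 4.1 (7.41% of genes), by 2.91 and 2.18, and against clone 4.2 (5.82% of genes), by 2.92 and 2.77. Clone 1.1 against clone 1.2 gave 5 of 6 (11.8% of genes), NEFL, NEFM, NES and SYNM higher and GFAP lower, and NEFL and NEFM alone without clone 1.2 replicate 3.

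NEFL and NEFM lie on chromosome 8, whose other genes had a median difference of 0.41 in WM115 clone 1.1, the highest of any chromosome there, and of 0.34 within 5 Mb of NEFL, against -0.12 over all genes. The rises of both genes were larger than these medians. For the falls of NEFL in clones 4.1 and 4.2 the chromosome medians were 0.10 and 0.09. The part of a shift of the whole chromosome in these values was not tested.

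**Figure D3:**
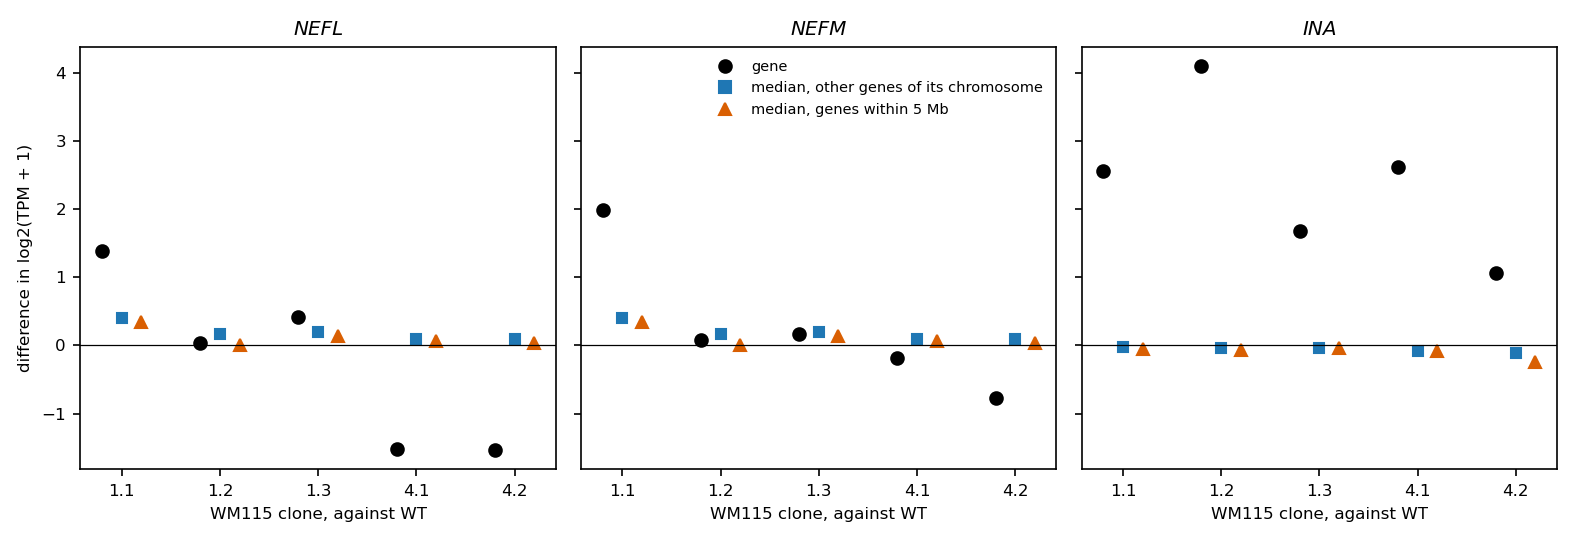
Difference from WT on the log2(TPM + 1) scale in the 5 WM115 clones for NEFL, NEFM and INA (black), with the median of the other genes of the same chromosome (square) and of the genes within 5 Mb (triangle). In clone 1.1, NEFL (1.39) and NEFM (1.99) lie above the chromosome 8 median of 0.41.

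With libraries as the unit and both R1 clones of a line averaged, the NEFM difference from WT was lower in A375 than in WM115 (A375 minus WM115 -1.50, SE 0.22, limma adjusted p = 5.25e-05), and NEFM was the 1 of 6 members to pass where 2.29% of 15287 genes did. In WM115 clone 1.1 NEFM differed from WT by 1.99 and in clone 1.2 by 0.08, and in A375 by -0.56 and -0.38, so the WM115 average comes from 1 clone. With clones as the unit, the difference of R1 minus R4 between the lines was -1.79 for NEFM (SE 0.80, limma adjusted p = 0.9997). By limma 0 of 6 members and 0% of genes passed in that comparison, with 0 members at an unadjusted p under 0.05.

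VIM, NES and SYNM are the filament genes of the mesenchymal and progenitor kinds. VIM stood at 2009.6, 2369, 4382 and 1780.0 TPM in WM115 WT, at 5254, 6301, 5341, 3976 and 3515 in clone 1.1 and at 6591, 4669.8 and 3721 in clone 4.2. The highest WT library (replicate 3) lay above the lowest library of every clone, so all groups overlapped, and the other WT libraries lay below all of clones 1.1, 1.2, 4.1 and 4.2. Clone 1.2 held 4057, 4628 and 2775 TPM and clone 4.1 held 3340.1, 5596 and 3264, with differences of 0.60 (limma adjusted p = 0.23) and 0.67 (limma adjusted p = 0.174). The difference was 0.95 (SE 0.31, limma adjusted p = 0.0344) in clone 1.1 and 0.98 (SE 0.35, limma adjusted p = 0.0571) in clone 4.2, both under the minimum, and 1.23 and 1.25 without WT replicate 3, where both passed. In libraries above 7.5% mitochondrial share, 2 of each of these clones, they were 0.60 and 0.76, and neither had an adjusted p under 0.05 (limma, 0.439 and 0.266). Reads of VIM-AS1, which overlaps VIM on the other strand, cannot be told apart from those of VIM.

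Among WT libraries, NES was likewise highest in replicate 3. It stood at 23.5, 27.2, 56.0 and 26.0 TPM in WM115 WT, at 61.8, 68.3, 72.4, 50.9 and 50.7 in clone 1.1, at 68.8, 62.2 and 47.6 in clone 4.1 and at 60.4, 53.4 and 54.8 in clone 4.2. WT replicate 3 overlapped all 3 of these clones and the other WT libraries lay below them. Differences of 0.93 (SE 0.24, limma adjusted p = 0.0114), 0.90 (SE 0.28, limma adjusted p = 0.0254) and 0.83 (SE 0.28, limma adjusted p = 0.0413) were under the minimum, and were 1.21, 1.17 and 1.11 without WT replicate 3, where all 3 passed. In libraries above 7.5% mitochondrial share they were 0.69 and 0.78 in clones 1.1 and 4.2 with 2 libraries each (limma adjusted p = 0.292 and 0.184), and 0.60 in the 1 such library of clone 4.1. Clones 1.2 and 1.3 had differences of -0.07 and 0.10. In A375 the highest NES was in clone 4.1 (186, 164, 134 and 175 TPM) and the lowest in clone 1.2 (65.8, 87.4, 76.8 and 66.1), against 129.9, 100.9, 78.0 and 151 in WT, and no difference passed.

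SYNM, which binds desmin and vimentin filaments and links them to other structures, was far higher in WM115 than in A375. In WM115 clone 1.2 it stood at 105, 81.1 and 6.49 TPM, all below the WT values of 238, 187, 197 and 124. The difference was -2.18 (SE 0.57, limma adjusted p = 0.0127), which passed. Without clone 1.2 replicate 3, the library with 9.56 TPM of SOX10, it was -0.97 (limma adjusted p = 0.0378), under the minimum. With the replicate number as a block it was -2.36 (limma adjusted p = 0.19). Same-numbered libraries of clone 1.2 and WT were not paired (r from -0.12 to 0.05), so nothing is read from that p. Clone 1.1 held 143, 102, 134, 79.3 and 91.9 TPM, overlapping WT at the top, and clones 1.3, 4.1 and 4.2 overlapped WT.

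GFAP reached at most 3.42 TPM in any library, NEFH at most 0.082 and PRPH at most 1.05, in both lines. GFAP in WM115 clone 1.2 stood at 1.69, 1.01 and 3.42 TPM against 0.337, 0.587, 0.225 and 1.04 in WT, a difference of 0.92 (SE 0.32, limma adjusted p = 0.043) under the minimum. Among 7 other astroglial genes, AQP4 and SLC1A3 were at 0 in all WM115 libraries, and SLC1A2 and GJA1 reached at most 0.208 and 2.05 TPM. ALDH1L1 ran from 2.89 to 30.0 TPM over the WM115 libraries, FGFR3 from 1.36 to 13.7 and AGT from 0.023 to 16.8. The sum of the 7 was 15.0 to 28.8 TPM in WT and 16.2 to 32.7 in clone 1.2.

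**Figure D4:**
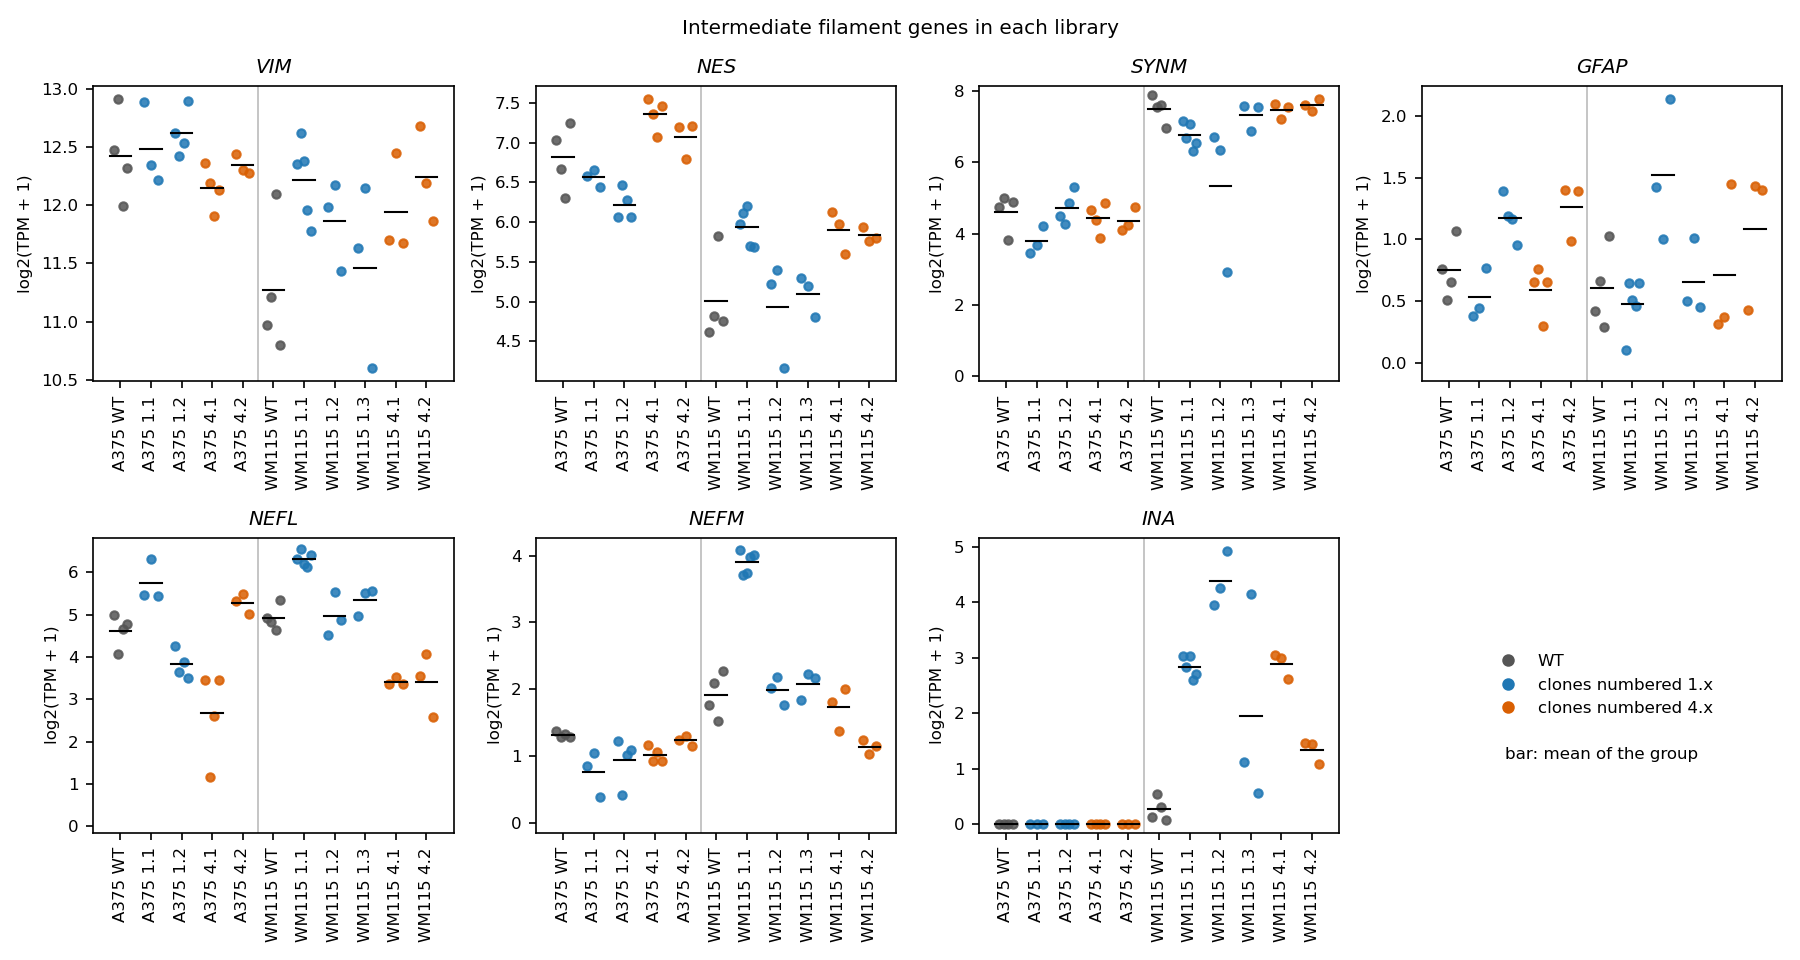
Level of 7 of the genes in every library, as log2(TPM + 1), with the mean of each group (bar); the grey line separates A375 from WM115. INA is at 0 in all A375 libraries, and NEFL and NEFM stand highest in WM115 clone 1.1.

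Counted over clones, 2 of 6 members tested passed in WM115 clone 1.1 (both higher, NEFL and NEFM), where 4.88% of all genes passed and 1.22% were higher. In clone 1.2, 1 of 6 passed (SYNM, lower), where 7.61% passed and 3.11% were lower. INA chose the members in these 2 comparisons, so nothing is read from the counts. In clone 4.1, 1 of 6 passed (NEFL, lower, with 7.57% of genes passing and 4.37% lower), in clone 4.2, 1 of 6 (NEFL, lower, with 6.6% of genes passing and 4.08% lower), and in clone 1.3, 0 of 6 (0.618% of genes, by limma, with 0 members and 13% of genes at an unadjusted p under 0.05). In A375, 1 of 6 passed in clone 4.1 (NEFL, lower, with 0.653% of genes passing and 0.407% lower) and 0 of 6 in clones 1.1 (0.731% of genes), 1.2 (4.01%) and 4.2 (0.473%) by limma, with 3, 2 and 1 members at an unadjusted p under 0.05, against 10.1%, 21.1% and 7.77% of genes. The median difference of the 6 members was 0.94 in WM115 clone 1.1, against -0.12 over all genes, and between -0.23 and 0.30 in the other clones of both lines. WM115 clones 1.1 and 1.2 chose the members through INA, so nothing is read from the medians there either.

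**Figure D5:**
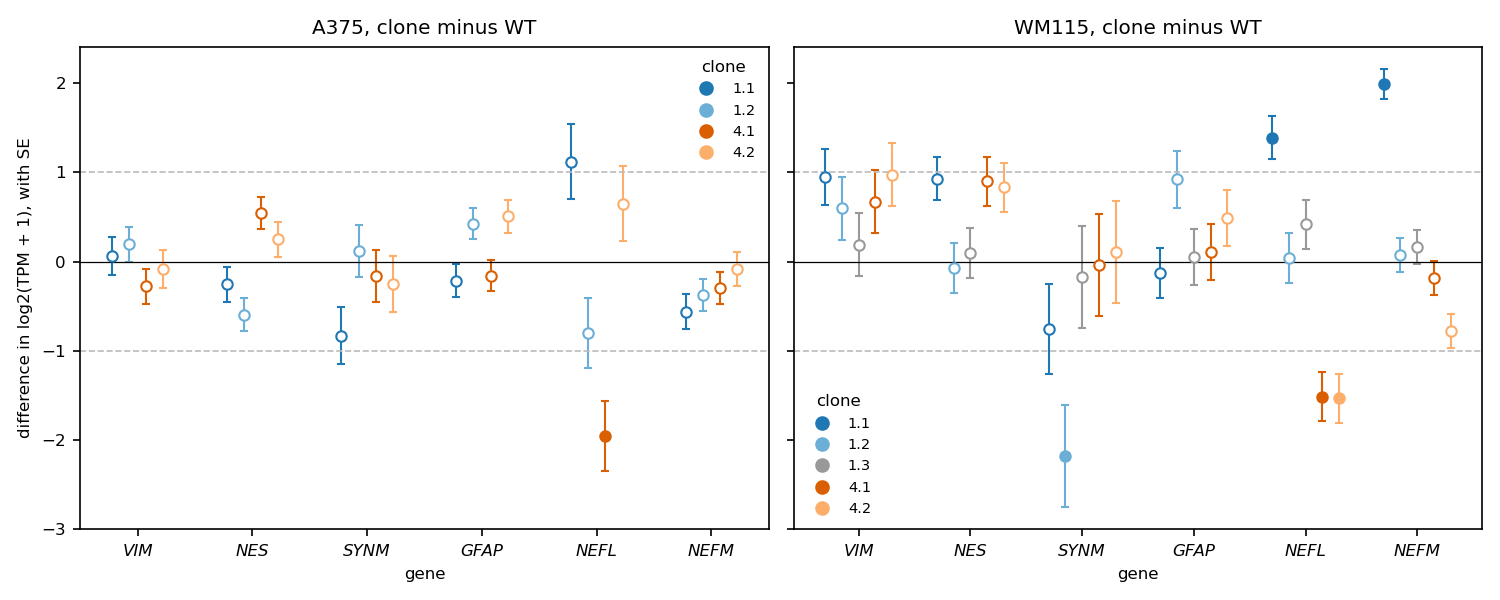
Difference from WT on the log2(TPM + 1) scale with its standard error for 6 members, by clone and line; filled points passed the test, and dashed lines mark the minimum difference of 1. Filled points are NEFL in A375 clone 4.1 and in WM115 clones 1.1, 4.1 and 4.2, NEFM in WM115 clone 1.1, and SYNM in WM115 clone 1.2.

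With the clone as the unit, R1 was compared with R4 over 8 clones of the 2 lines. By limma 0 of 6 members and 0 of 15287 genes passed (0%), and 2 members had an unadjusted p under 0.05, against 4.3% of genes. They were NEFL (R1 minus R4 1.53, SE 0.66, limma adjusted p = 0.996) and NES (-0.63, SE 0.23, limma adjusted p = 0.996). NEFL lay above WT in clone 1.1 of both lines but also in clone 4.2 of A375.

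Between the unedited lines, 3 of 5 members tested passed, where 22.7% of genes passed. VIM was higher in A375 by 1.15 (SE 0.31, limma adjusted p = 0.0112, and 0.99 without A375 WT replicate 2), NES by 1.81 (SE 0.29, limma adjusted p = 0.00072), and SYNM differed by -2.90 (SE 0.28, limma adjusted p = 3.2e-05). NEFL differed by -0.31 (limma adjusted p = 0.271), and NEFM by -0.60 (limma adjusted p = 0.023), under the minimum.

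Other parts of the filament system were read from lists of genes. Of 16 other intermediate filament genes tested (keratins, lamins and kin, of 22), 5 were higher in WM115 clone 4.1 (3.2% of all genes were higher there). In clone 4.2, 4 were higher (2.52%), and in clone 1.2, 3 were higher (4.49%) and 1 lower (3.11%). In clones 1.1 and 1.3, 0 were higher (1.22% and 0.424% of all genes). By limma 0 and 1 had an unadjusted p under 0.05 there, against 35.1% and 13% of all genes. In A375 clone 1.2, 5 were higher (2.57% of all genes). KRT23 was at 48.6 to 83.9 TPM in clone 4.1 against 0.036 to 0.753 in WT, and KRT17 at 10.95 to 14.6 against 1.94 to 3.62. In clone 4.2 KRT23 was at 0.135 to 3.29 TPM and KRT17 at 5.29 to 7.72. In A375, KRT81, a hair keratin gene, differed by 5.38 in clone 1.2 but by -2.36 in clone 1.1, the other R1 clone, and by -3.01 in clone 4.1 (limma adjusted p = 1.11e-06, 0.0299 and 0.0021). The KRT81 and KRT86 and the KRT14 and KRT17 sequences are similar enough that reads may be split between them. Of 25 tested linkers, motors and turnover genes, 2 were higher and 3 lower in WM115 clone 1.2 (4.49% and 3.11% of all genes). At most 3 passed in any other clone, where 0.473% to 7.57% of all genes did. PLEC, which ties filaments to other structures, stood at 47.2 to 96.8 TPM in WM115 WT and 117 to 162 in clone 1.2, a rise of 1.13 (limma adjusted p = 0.0136). It was higher by the test in 3 WM115 clones. PLEC ran from 84.8 to 172 TPM in clone 1.1, 60.5 to 139 in clone 1.3, 86.3 to 136 in clone 4.1 and 113 to 154 in clone 4.2. A list of 12 genes covered the REST repressor complex, which holds neuronal genes silent in other cells, and its regulation. By limma 0 of these genes passed in any of the 9 clones, with 0 to 6 of them at an unadjusted p under 0.05. Over all genes, 0.473% to 7.61% passed in these clones and 7.77% to 37.1% had an unadjusted p under 0.05.

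The neuronal list was of 40 genes, 19 of them tested in WM115. In clone 1.2, 6 were higher (4.49% of all genes) and 1 lower (3.11%). In clone 4.1, 1 was higher (3.2%), and in clone 4.2, 2 were lower (4.08%). By limma 0 passed in clones 1.1 and 1.3 (4.88% and 0.618% of all genes). Of the neuronal genes there, 3 and 5 had an unadjusted p under 0.05, against 35.1% and 13% of all genes. BEX1 stood at 106 to 542 TPM in clone 1.2 and at 0 to 0.15 in WT, and SCG2, a secretory granule protein, at 69.5 to 193 against 5.36 to 7.56. For BEX1 clone 1.3 ranged from 0.074 to 97.4 TPM, the highest in replicate 2, just under the range of clone 1.2. In A375 the summed TPM of the neuronal list was 3028.8 to 5024.9 in clone 4.1 and 932.05 to 1723.1 in WT, without overlap. It was 683.81 to 2029.7 in clone 1.1, 824.03 to 1307.8 in clone 1.2 and 824.27 to 1759.1 in clone 4.2, all overlapping WT. L1CAM was higher by the test in 1 A375 clone, with means of 163.95 TPM in clone 1.2 and 16.961 in WT. Of 25 mesenchymal genes tested in WM115, 8 were higher in clone 4.1 (3.2% of all genes). In clones 4.2 and 1.2, 9 (2.52%) and 6 (4.49%) were higher. There were 2 higher in clone 1.1 (1 lower), where 1.22% of all genes were higher and 3.66% lower. In clone 1.3, 0 were higher (0.424% of all genes). By limma 8 had an unadjusted p under 0.05 in clone 1.3, against 13% of all genes. In A375, of 23 tested, clone 1.2 had 1 higher and 4 lower (2.57% and 1.44% of all genes). Clones 1.1, 4.1 and 4.2 of A375 had 1 higher each (0.186%, 0.246% and 0.108% of all genes). Those higher in WM115 included FN1, the fibronectin gene, at 3018 to 6468 TPM in clone 4.1 against 798 to 1729.9 in WT. FN1 was higher by the test in 3 WM115 clones. It ran from 1079 to 2780 TPM in clone 1.1, 2242 to 3222 in clone 1.2 and 3163 to 5041 in clone 4.2. S100A4, a calcium-binding protein of motile cells, rose by 2.17, 2.29 and 2.37 in clones 1.1, 4.1 and 4.2 (limma adjusted p = 1.65e-05, 4.32e-05 and 5.01e-05). The median difference of this list was 0.77 in clone 4.1, against -0.10 over all genes. Of 14 pigment cell genes tested, 3, 7, 10 and 9 were lower in clones 1.1, 1.2, 4.1 and 4.2 (3.66%, 3.11%, 4.37% and 4.08% of all genes were lower there). In clone 4.2, 1 was higher (2.52% of all genes), and 0 passed in clone 1.3 by limma (0.618% of all genes). DCT, a melanin synthesis enzyme, stood at 215 to 1685 TPM in WT and 2.37 to 13.7 in clone 4.1. It was lower by the test in 3 WM115 clones, and ran from 66.2 to 376 TPM in clone 1.1, 0 to 148 in clone 1.2 and 2.71 to 8.72 in clone 4.2. Of the marker lists of other cell types, keratinocyte and endothelial genes had 1 higher each in clones 1.2, 4.1 and 4.2 (4.49%, 3.2% and 2.52% of all genes). Immune genes had 0 by limma in all clones, with at most 1 at an unadjusted p under 0.05 (7.77% to 37.1% of all genes). Astroglial genes had 2 of 3 lower in clones 1.1 and 4.1 (3.66% and 4.37% of all genes). In clone 4.2, 1 astroglial gene was lower (4.08%) and 1 (FGFR3) higher (2.52%). Fibroblast markers summed to 30.3 to 64.9 TPM in WM115 WT and 234 to 360.0 in clone 4.1. Of 6 tested, 2 were higher in clone 4.1 (3.2% of all genes), and 1 was higher and 1 lower in each of clones 1.1, 1.2 and 4.2. In these 3 clones 1.22%, 4.49% and 2.52% of all genes were higher, and 3.66%, 3.11% and 4.08% lower. LUM was the gene lower in those 3 clones (-2.34, -2.02 and -1.71), FBLN1 was higher in clones 4.1 and 4.2 (3.28 and 1.97) and reached 346 TPM, while MFAP5 and DPT were at 0 in all WM115 libraries; the part of other cells in these levels was not tested.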

How the data were processed

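The 9 genes, the gene lists and the rule for named genes (all 9 members, per list up to 4 genes called the same way in the most clones, ties by size, the 5 genes with the highest r with INA, and SOX10) were chosen with earlier results of these data known. The deposited tables hold TPM per gene and per transcript; per the submitters' processing notes the tools included DRAGEN and the build was GRCh38, and the annotation release is not given in the sources used here. Read depth is unknown, because TPM keeps none. The 200 repeated lines were dropped. In each table, 6 columns match no sample and were not used. Their names mark them as WM115 WT under other numbers than the WM115 WT libraries used here. From TPM, log2(TPM + 1) was fitted with limma 3.58.1 in R 4.3.3, per line, with 1 coefficient per group, a variance trend and Benjamini-Hochberg adjustment over 16692 genes in A375 and 16997 in WM115; the script was tested on simulated data. Positions are from GENCODE 29, and upstream sequences are from RefSeq (GRCh38.p14). Correlations of same-numbered libraries were over 0.1 for every pair only in A375 clone 4.1 and WT (0.326 to 0.776, 4 pairs). There the block kept the single call, NEFL.
Alternatives covered the pseudocount, the low-value filter, scaling, the minimum difference, the groups fitted, mitochondrial share, the replicate block and leaving out each library.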

Additional observations from a re-analysis of the deposited data

Results flagged for a closer look

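In a check of the 42 sets of 4 to 10 libraries with varying values, 1 library was far from the others of its group: NES in WM115 WT replicate 3, at 56.0 TPM against 23.5 to 27.2 in the others. Chance flags about 1 in 20 such groups.

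NEFM in the R1 clones, taken over libraries, differed between the lines by -1.50 (A375 minus WM115, limma adjusted p = 5.25e-05). This p treats libraries of 2 clones as replicates, and WM115 clone 1.2 differed from WT by 0.08; with clones as the unit, R1 minus R4 differed between the lines by -1.79 (limma adjusted p = 0.9997). In the comparison over libraries the 5 other members tested had adjusted p from 0.0814 to 0.641.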

How the results depend on the processing

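The counts of members that passed were compared over 261 alternatives, of which 35 moved a count beyond 1.5 times. Using median-of-ratios scaling gave 4, 2 and 2 members in WM115 clones 1.1, 4.1 and 4.2, a pseudocount of 0.1 gave 2 in clone 4.2, and no minimum difference gave 4, 2, 2 and 3 in clones 1.1, 1.2, 4.1 and 4.2. Only libraries of high mitochondrial share gave 1 in clone 1.1, where 2 libraries remained, and 0 in clone 1.2. All 3 libraries of clone 1.2 and all 4 of WT are of high share. For clone 1.2 that fit dropped only libraries of other clones, which changes the estimate of spread, so its lost call says nothing about mitochondrial share. In clone 4.1 a single library remained, which is assumed to vary like the other groups. Its NEFL difference was -1.57, and nothing about mitochondrial share is read from it. Only libraries of low mitochondrial share gave 0 in A375 clone 4.1, with 3 libraries in each group. Fitting only the 2 groups compared gave 0 in A375 clone 4.1 and 0 in WM115 clone 1.2. With the replicate block the counts were 0 in WM115 clone 1.2 and 0 in clone 4.2, and 3 in clone 1.1. Replicate numbers did not pair these clones with WT, so nothing is read from these counts. Between clones, added after seeing the data, a pseudocount of 0.1 gave 2 in A375 clones 1.1 and 1.2, and quantile normalization gave 3 in WM115 clones 1.1 and 1.2. Leaving out 1 library gave 0 to 1 members in A375 clone 4.1, 2 to 4 in WM115 clone 1.1, 0 to 2 in clone 1.2, 1 to 2 in clone 4.1, 1 to 3 in clone 4.2, 0 to 2 in A375 clones 1.1 against 1.2, and 2 to 5 in WM115 clones 1.1 against 1.2; the cause was not tested. No called difference changed sign. Of 1534 member values over the alternatives, passing or not, 56 changed sign, all among those that did not pass. Numbers shared by clone and WT paired only A375 clone 4.1, where the block gave NEFL -1.96 (limma adjusted p = 0.0059). INA in WM115 depended on the pseudocount: with 0.1 it was 4.49 in clone 1.1, 6.15 in clone 1.2, 4.55 in clone 4.1 and 2.53 in clone 4.2. With few libraries a group, small differences were not detectable.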

Other observations

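Over the 21 WM115 libraries, NEFL and NEFM had a correlation of r = 0.835 and VIM and NES of r = 0.771 on the log2(TPM + 1) scale; the libraries share clones, so these are descriptions. In A375 the same pairs had r = 0.118 and r = -0.43 over 18 libraries.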
